A study of Mus musculus with 7 samples.

Results

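Complex I of the respiratory chain was measured through 33 genes named as its subunits in left ventricles of 21-month-old male mice. The genes are those whose symbol begins with Ndufa, Ndufb, Ndufc, Ndufs or Ndufv and a number. They are 33 of the 12393 genes that have a probe set of their own in the table, and include Ndufa4, now counted as a subunit of cytochrome oxidase. Each gene is given by 1 probe set, the brightest of those that stayed below the upper limit of the scale on every array, where there was one. RNA came from 3 mice labelled eNOS knockout (M4, M10 and M140) and 4 mice labelled wild type (M23, M125, M128 and M158), with 1 MOE430A array per mouse. The knockout lacks endothelial nitric oxide synthase, which makes nitric oxide in the lining of blood vessels and is encoded by Nos3. All mice were male and of the same age. The sources used here do not give the strain, the disrupted part of the gene or whether single mice had exercised. The labels name as the purpose a search for transcripts that go with failing heart function in old knockout males.

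Complex I is the large entry enzyme of the respiratory chain, built from an arm in the mitochondrial matrix and an arm in the inner membrane. The matrix arm takes electrons from NADH and passes them through flavin and iron-sulphur clusters to ubiquinone, and the membrane arm pumps protons. The core subunits carry out catalysis, and the many accessory subunits are needed for assembly and stability. Heart muscle, which runs on oxidative metabolism, is among the tissues richest in this enzyme.

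The values are deposited intensities on a linear scale, with a median of 671 to 699 per array and an upper limit of 44145 to 45552. The probe set of Nos3 read 1145, 1413 and 1135 on the arrays labelled knockout, against 791, 1163, 872 and 1058 on the wild-type arrays. The targeted transcript was not lower in the knockout. Where this probe set lies relative to the disruption is not stated, and the labels could not be checked by it. Of 8 ventricular muscle markers, 7 read the upper limit on each array. Of the 4 atrial markers, Nppa read 44868, 37741 and 45540 on knockout M4, M10 and M140, with M4 and M140 at the upper limit, against 6717, 32820, 12669 and 7993 in the wild type. Nppa, which encodes a natriuretic peptide that stressed ventricles also make, was higher on every knockout array. The atrial light chain Myl7 read 1207, 17557 and 407 in the knockout and 356, 16097, 2926 and 399 in the wild type. Myl7, Myl4 and Sln were thus highest on knockout M10 and wild-type M125. They came next on wild-type M128 and were low on M140, and their groups overlapped. Myl4 read 5738 on M128 and 1113 on M140, and Sln read 3071 and 477. The 3 red cell markers with a probe set summed to 4991 to 9788 on knockout arrays and 3647 to 4487 on wild-type arrays, with no overlap. Of these, Alas2 and Hbb-b2 were higher on every knockout array, and Hba-a1 was dim on all arrays. Fibroblast markers summed to 19421 to 57707 on knockout arrays and 24848 to 37967 on wild-type arrays. Endothelial markers summed to 12730 to 15523 on knockout arrays and 12426 to 17019 on wild-type arrays. Macrophage markers summed to 19877 to 23533 on knockout arrays and 14717 to 20514 on wild-type arrays. Of the macrophage markers, Csf1r, Cd68 and Cd163 were higher on every knockout array, while Adgre1, C1qa and C1qb overlapped between the groups. The 3' probe set of Gapdh was at the upper limit on 6 of 7 arrays and near it on M158, so that its 5' to 3' ratio is no measure here. The 5' to 3' ratio of Actb, a control for RNA integrity, was 0.517 to 0.676 on knockout arrays, against 0.312 on wild-type M23, 0.371 on wild-type M158 and 0.633 to 0.833 on the other wild-type arrays. M23 and M158 shared hybridization day 4, and the sheet of M23 records that more than 1 processing had been combined. The part of these differences in the results was not tested, but results are also given without M23 and M158, and without M10 and M125. In whole tissue, fewer cells of a type and less RNA per cell cannot be told apart.

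Most complex I subunits read slightly lower in the knockout, with larger differences for a few, but no single gene passed correction for all genes measured. Of the 33 genes, 32 passed the filter on dim probe sets, and 28 of these had a lower mean in the knockout, against 50.5% of all 8863 tested genes. The sign of members at the upper limit is set by the limits of the arrays. Of the 27 tested members that never reached it, 23 were lower, against 50.5% of all 8828 such genes. With quantile normalization 24 of the 32 were lower, and without M23 and M158 23 of the 32. Both counts include the members at the limit. The share of all tested genes lower in these settings was not counted, so they have no background here. The median log2 difference (knockout minus wild type) was -0.09, against -0.0025 over all tested genes. By limma, 0 members had an adjusted p under 0.05 (lowest adjusted p = 0.196). At an unadjusted p under 0.05, 5 members were lower and 0 higher, where 5.44% of all tested genes were lower and 6.77% higher. The 5 are Ndufb2, Ndufs4, Ndufb6, Ndufs1 and Ndufa2. All 3 knockout arrays lay below all 4 wild-type arrays for 8 members and above them for 0, against 4.94% and 5.29% of all tested genes. The count of 5 was 3 without knockout M4, without knockout M10 or without wild-type M158, and 8 without wild-type M128, where 2.89%, 4.91%, 4.29% and 6.06% of all tested genes were lower. The count of 8 was 13 without knockout M10 or without wild-type M125, where 11.7% and 7.33% of all tested genes lay below. The p-values rest on the spread among single mice of a group. Hybridization day was largely tied to group, with M4 and M10 on day 3, M23 and M158 on day 4 and M125 on day 2. Only day 1, with M140 and M128, held both groups, and chip lot changed with day. Elsewhere day and lot cannot be told apart from group.

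**Figure D1:**
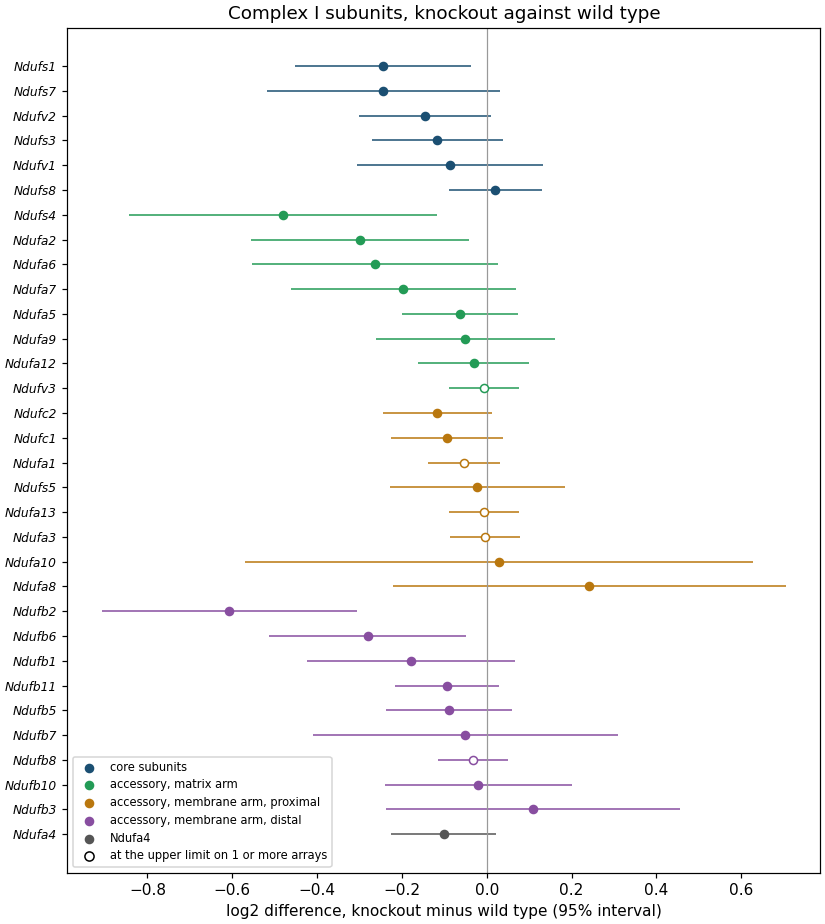
Log2 difference (knockout minus wild type) with its 95% interval for the 32 tested complex I subunits, grouped by role. Open symbols mark genes at the upper limit on 1 or more arrays. The points of 28 genes lie left of 0, of which 23 never reached the limit, and the intervals of Ndufb2, Ndufs4, Ndufb6, Ndufs1 and Ndufa2 lie wholly left of it.

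Among the 6 core subunits measured, 5 read lower in the knockout (50.5% of all tested genes did) and 1 was lower at an unadjusted p under 0.05 (5.44% of all tested genes). Ndufs1, the largest subunit, which holds iron-sulphur clusters of the electron path, read 25448 (M4), 27632 (M10) and 21704 (M140) in the knockout. The wild-type hearts gave 27632 (M23), 29588 (M125), 31442 (M128) and 29079 (M158). The groups touched, since knockout M10 and wild-type M23 had the same value, and the lowest array was knockout M140. The log2 difference was -0.25 ± 0.09 (SE; limma adjusted p = 0.367). It was -0.15 without knockout M140, where the unadjusted p was over 0.05. Ndufv2, which carries an iron-sulphur cluster beside the NADH site, read 37102, 34433 and 38120 on the knockout arrays, against 43853, 37605, 38582 and 41964 on the wild-type arrays. Knockout M140 lay above wild-type M125, and the log2 difference was -0.15 ± 0.07 (SE; limma adjusted p = 0.453).

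Ndufs7, which holds the last iron-sulphur cluster before ubiquinone, read 30335, 32127 and 28624 in the knockout, against 42556, 32127, 30682 and 39678 in the wild type. The high wild-type values were those of M23 and M158, the arrays of day 4 with the lowest Actb ratio. The log2 difference was -0.24 ± 0.12 (SE; limma adjusted p = 0.481) with all arrays and -0.05 without these arrays. Its other probe set read highest, at 43706, on wild-type M125 and differed by -0.14.

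The remaining core subunits overlapped between the groups. Ndufs3, which helps to bind the ubiquinone module together, read 23832, 26630 and 27150 in the knockout and 27043, 29279, 27150 and 28642 in the wild type (log2 difference -0.12, limma adjusted p = 0.558). Ndufv1, which binds NADH and the flavin, read 31378, 35014 and 35014 in the knockout and 41296, 36769, 31134 and 35014 in the wild type (log2 difference -0.09, limma adjusted p = 0.789). Ndufs8, a carrier of iron-sulphur clusters, read 42376, 40845 and 39708 in the knockout and 41467, 41692, 39997 and 38463 in the wild type (log2 difference 0.02, limma adjusted p = 0.916). Its 5 other probe sets differed by -0.26 to -0.08.

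The accessory subunits of the matrix arm had a median log2 difference of -0.20 over the 7 that never reached the upper limit, and 7 of these 7 read lower in the knockout, against 50.5% of all tested genes. Ndufs4, a late-assembled subunit whose loss causes complex I deficiency in mouse and human, read 15878, 15628 and 15342 on the knockout arrays, 15616 ± 268 in the mean (SD, n = 3). On the wild-type arrays it read 17742, 19286, 28929 and 22777, a mean of 22183 ± 4966 (SD, n = 4). The knockout arrays were nearly alike and lay below every wild-type array, while the wild-type arrays spread widely with M128 at the top. The log2 difference was -0.48 ± 0.16 (SE; limma adjusted p = 0.316), and -0.60 without M23 and M158. The unadjusted p stayed under 0.05 in 22 of 22 alternatives. Its 2 dimmer probe sets differed by -0.49 and -0.51, although their groups overlapped.

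Ndufa2, a small subunit of the NADH-oxidizing module, read 18010, 20003 and 20520 in the knockout and 28613, 20856, 23175 and 23861 in the wild type. The groups did not overlap, but knockout M140 and wild-type M125 lay close together, and wild-type M23 stood highest. The log2 difference was -0.30 ± 0.11 (SE; limma adjusted p = 0.373). Without M23 and M158 it was -0.17, with an unadjusted p over 0.05. Ndufa6, a subunit that contacts the mitochondrial acyl carrier protein, read 23610, 25249 and 25105 in the knockout and 27712, 26894, 38124 and 26894 in the wild type. Its knockout arrays also lay below every wild-type array (log2 difference -0.26 ± 0.13, SE; limma adjusted p = 0.470). Ndufa7, Ndufa5, Ndufa9 and Ndufa12 had overlapping groups and differed by -0.20, -0.06, -0.05 and -0.03. Ndufv3 read the upper limit on each of the 7 arrays and gives no fold.

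Accessory subunits of the inner part of the membrane arm had a median log2 difference of -0.02 over the 5 genes that never reached the limit. Of these 5, 3 read lower, against 50.5% of all tested genes. By limma, 0 of the 8 tested subunits had an unadjusted p under 0.05, where 5.44% of all tested genes were lower and 6.77% higher. This group also held 3 of the 5 members that reached the upper limit. Ndufa13 was at the limit on all arrays and Ndufa3 on all but wild-type M158, so that neither gives a fold. Ndufa1, a small single-pass membrane subunit, read 43466, 43708 and 42058 in the knockout and 44818, 44145, 45291 and 44557 in the wild type. Its groups did not overlap, but wild-type M125 and M128 were at the limit, and the log2 difference of -0.05 is compressed.

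Ndufc2, a subunit at the joint of the arms, had probe sets that differed in size of difference. Its bright probe set read 32419, 36170 and 35405 in the knockout and 38182, 35943, 39021 and 37088 in the wild type, a log2 difference of -0.12 ± 0.06 (SE; limma adjusted p = 0.473). Its dimmer probe set read 7095, 6836 and 7422 in the knockout and 8221, 10652, 10945 and 10117 in the wild type. There the groups did not overlap, and the log2 difference was -0.48 ± 0.13 (SE; limma adjusted p = 0.259). This probe set was chosen after its values were seen. Ndufa8, a membrane arm subunit on the side facing the intermembrane space, had the highest positive difference, at 0.24 ± 0.20 (SE; limma adjusted p = 0.708). Ndufa8 read 17263, 18792 and 13583 in the knockout and 10794, 18837, 12154 and 14929 in the wild type, with wholly mixed groups. Ndufa10 ran from 15031 to 16149 in the knockout and from 10777 to 24778 in the wild type (log2 difference 0.03). Ndufc1 and Ndufs5 differed by -0.09 and -0.02.

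The outer part of the membrane arm held the member that differed most. Ndufb2, an accessory subunit near the end of this arm, read 27221 (M4), 21301 (M10) and 31845 (M140) in the knockout, a mean of 26789 ± 5286 (SD, n = 3). It read 38353, 37168, 44397 and 41563 on the wild-type arrays, a mean of 40370 ± 3264 (SD, n = 4). Every knockout array lay below every wild-type array. The log2 difference was -0.61 ± 0.13 (SE), a knockout to wild-type ratio of 0.656 (limma adjusted p = 0.196). The other probe set of its own read 19355, 16790 and 19853 in the knockout, against 25803, 29472, 37242 and 27328 in the wild type. It gave a log2 difference of -0.67 ± 0.13 (SE; limma adjusted p = 0.166). Without M23 and M158 Ndufb2 differed by -0.62, and without M10 and M125 by -0.49, both with an unadjusted p under 0.05. With limma array weights it was the 1 member that passed over all genes (adjusted p = 0.0318; adjusted p 0.0318 to 0.672 over all alternatives), in a fit where 4.60% of all tested genes passed.

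Ndufb6, a further membrane arm subunit, read 16474, 16093 and 18664 in the knockout and 18948, 21976, 19077 and 23131 in the wild type. The groups were separate, though knockout M140 and wild-type M23 nearly met. The log2 difference was -0.28 ± 0.10 (SE; limma adjusted p = 0.356). It was -0.26 without M23 and M158 and -0.21 without M10 and M125, both with an unadjusted p over 0.05. Its second probe set overlapped between the groups and differed by -0.21. Ndufb1 was lower on every knockout array, at 2010, 2055 and 2035 against 2114, 2330, 2516 and 2274 in the wild type, with a log2 difference of -0.18 ± 0.11 (SE; limma adjusted p = 0.574). Ndufb11, whose gene lies on the X chromosome, differed by -0.09 on its brightest probe set, and by -0.23 and -0.10 on the others, both with an unadjusted limma p under 0.05. Ndufb5, Ndufb7, Ndufb8 and Ndufb10 differed by -0.09 to -0.02 with overlapping groups, and Ndufb3 by 0.11. The probe set that the rule gave for Ndufb9 was dim, at 454 to 493 in the knockout and 482 to 521 in the wild type. It did not pass the filter, and the bright probe sets of that gene were at or near the limit.

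**Figure D2:**
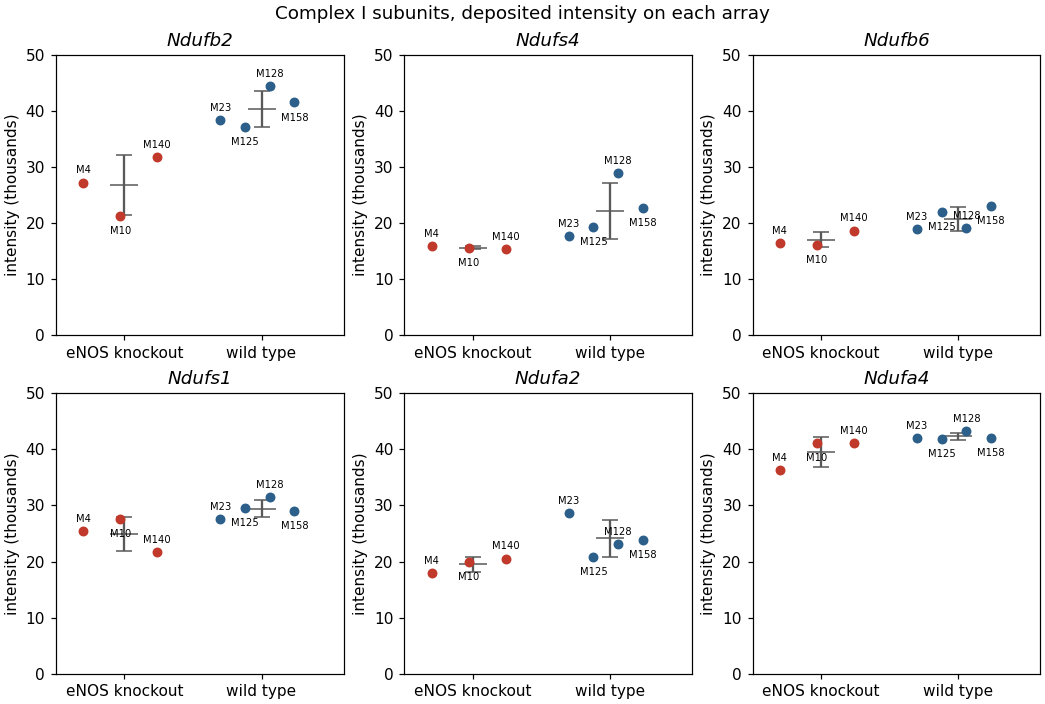
Deposited intensity of the 5 subunits with an unadjusted p under 0.05, and of Ndufa4, on each array (1 point per mouse), with the group mean and SD in grey. The 3 knockout points of Ndufb2 lie between 21301 and 31845, all below the 4 wild-type points.

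Upstream sequences are shown for 3 of the 5 subunits with an unadjusted limma p under 0.05, those that the RefSeq promoter table holds. Each is the 250 bases before the annotated start in GRCm38.p6, written 5' to 3' on the gene's strand. Capitals mark short matches, on either strand, to motifs of factors known to act on respiratory genes: TGCGCA for NRF1, AAGGTCA for the ERR receptors, CCGGAA for ETS factors such as GABP, and AAGATGG for YY1. The first lies at chr6:39592315-39592564 on the plus strand, the second at chr4:40279422-40279671 on the minus strand and the third at chr13:114388095-114388344 on the minus strand.
Ndufb2: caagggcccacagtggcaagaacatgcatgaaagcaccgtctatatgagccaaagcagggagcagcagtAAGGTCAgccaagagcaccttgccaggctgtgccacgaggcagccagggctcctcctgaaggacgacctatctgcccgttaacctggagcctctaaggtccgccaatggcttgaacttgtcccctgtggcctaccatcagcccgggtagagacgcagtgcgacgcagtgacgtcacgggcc
Ndufb6: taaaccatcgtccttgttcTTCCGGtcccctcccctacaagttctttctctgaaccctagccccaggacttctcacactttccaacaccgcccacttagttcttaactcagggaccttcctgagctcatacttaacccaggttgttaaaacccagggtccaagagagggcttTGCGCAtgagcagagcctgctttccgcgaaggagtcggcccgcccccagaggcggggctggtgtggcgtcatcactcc
Ndufs4: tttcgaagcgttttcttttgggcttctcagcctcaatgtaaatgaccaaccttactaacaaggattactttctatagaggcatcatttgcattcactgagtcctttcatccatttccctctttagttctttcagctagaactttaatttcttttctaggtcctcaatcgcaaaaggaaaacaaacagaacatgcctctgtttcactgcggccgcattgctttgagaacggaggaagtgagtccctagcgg
The window of Ndufb2 held 1 match, to the ERR motif. That of Ndufb6 held 1 match to the ETS motif, on the opposite strand, and 1 to the NRF1 motif, and that of Ndufs4 held none of the 4.

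Over the 30 member genes with an entry, the NRF1 motif was in 5 windows (16.7%), against 6.66% of the 27025 promoters of the same length. The ETS motif was in 8 (26.7%), against 12.2% of all promoters, the ERR motif in 2 (6.67%), against 4.05%, and the YY1 motif in 0, against 4.53%. The ERR matches were those of Ndufb2 and Ndufs5. Ndufs1, Ndufa2 and Ndufb9 had no entry. These shares describe letters in a window and were not tested.

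Ndufa4 carries the family name and is among the 33 genes, but is now counted as a subunit of cytochrome oxidase. It read 36371, 41151 and 41059 in the knockout and 42094, 41853, 43281 and 42094 in the wild type. The groups did not overlap, but M10 and M140 lay within 1000 of the lowest wild-type array, and the log2 difference was -0.10 ± 0.05 (SE; limma adjusted p = 0.522). Its paralogue Ndufa4l2 was not analysed here.

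Array by array, the subunits did not move as one block. Relative to the wild-type mean of each gene, the median over the 32 tested members was -0.07 on knockout M4, -0.03 on knockout M10 and -0.08 on knockout M140. Over all tested genes it was -0.0073 on M4, 0.020 on M10 and -0.019 on M140. On the wild-type arrays the median over the members was between -0.01 and 0.01, near 0 by construction. Of the 27 that never reached the limit, 23 were below the wild-type mean on M4, 21 on M10 and 26 on M140. Each wild-type array had 11 to 17 below it, but enters that mean itself and is no control. Over these 27 the median was -0.12 on M4, -0.05 on M10 and -0.08 on M140, and between -0.03 and 0.04 on the wild-type arrays. The core subunits were lowest on M4, with a median of -0.20, against -0.08 on M10 and -0.06 on M140. Of the 28 members that never reached the limit, M140 had the lowest value of 8, M4 of 7 and M10 of 4. The wild-type array M128 was lowest for 6 of them and also highest for 8. It was high for Ndufs4, Ndufa6 and Ndufb2 and low for Ndufa10, Ndufb7 and Ndufb3. Wild-type M125 was highest for 8 and lowest for 0.

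**Figure D3:**
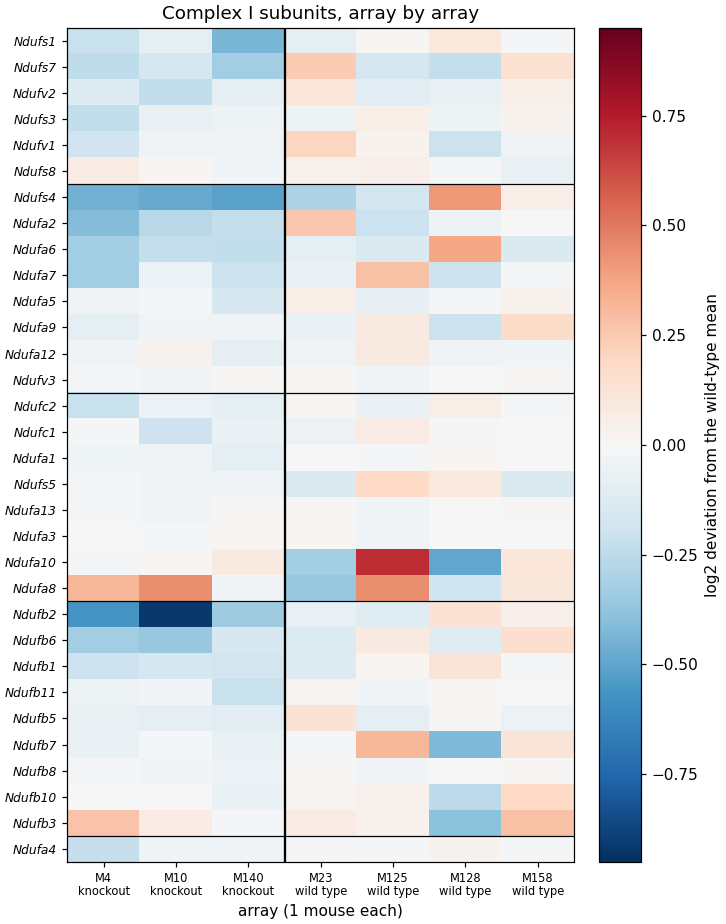
Log2 deviation of each of the 32 tested subunits (rows, grouped by role) from its wild-type mean on each array (columns, knockout left of the line). Ndufb2 and Ndufs4 are blue, that is lower, on all 3 knockout arrays, and M128 holds both high and low subunits.

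The hybridization day that held both groups paired knockout M140 with wild-type M128. These arrays also differed in atrial transcript, with Myl7 at 407 on M140 and 2926 on M128. Their Actb 5' to 3' ratios were 0.524 on M140 and 0.833 on M128. The part of these differences in the contrast was not tested. Over the 27 tested members that never reached the limit the median of M140 minus M128 was -0.06 on the log2 scale. Over all such genes it was -0.0048. Of these members 19 were lower and 7 higher, but the share of all genes lower within that day was not counted. Within that day Ndufs4 differed by -0.91, Ndufa6 by -0.60, Ndufs1 by -0.53 and Ndufb2 by -0.48. Ndufa2 and Ndufb6 differed by -0.18 and -0.03, and Ndufb7, Ndufb3 and Ndufa10 by 0.35, 0.37 and 0.58. With hybridization day as a fixed block, this pair is the only contrast, 1 array against 1, and the spread comes from the array pairs of the other days (M4 with M10, M23 with M158). There 4 members had an unadjusted p under 0.05 on the lower side (Ndufa6, Ndufs1, Ndufs4 and Ndufb11) and 1, Ndufb7, on the higher side, against 7.35% and 8.74% of all tested genes. Ndufb2 did not pass that threshold in this fit.

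Many subunits lay near the bright end of the scale. Of the 33 probe sets, 5 reached the upper limit on 1 or more arrays, and 14 read 90% of it or more on at least 1 array. Of the 13 tested members with a wild-type mean under 30000, 10 read lower, against 50.2% of all genes in that range, and 4 were lower and 0 higher at an unadjusted limma p under 0.05, against 5.36% and 6.86%. Of the 14 at 30000 or more that never reached the limit, 13 read lower, against 68.3% of the 104 genes in that range, and 1, Ndufb2, was lower and 0 higher at that p, against 12.5% and 0.962%. The median log2 difference of the 14 members was -0.09, against -0.04 for these 104 bright genes, members included. The difference between dim and bright members was not tested. The 18 members with several probe sets of their own had 32 further ones, of which 31 were tested. Of these, 22 never reached the limit, and 22 of 22 read lower in the knockout. Of all tested genes that never reached it, 50.5% did. Their median log2 difference was -0.16 for the 22 probe sets. Some of the 22 had a wild-type mean of 30000 or more, where 68.3% of the 104 tested genes read lower. Several of the 22 are of the same gene, as for Ndufa7 and Ndufs8. All were read on the same RNA, so that they are not independent. At an unadjusted p under 0.05, 5 of them were lower and 0 higher by limma, against 5.44% and 6.77% of all tested genes. Ndufa11, Ndufb4 and Ndufs6 have probe sets that also match a related gene, and were left out.

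**Figure D4:**
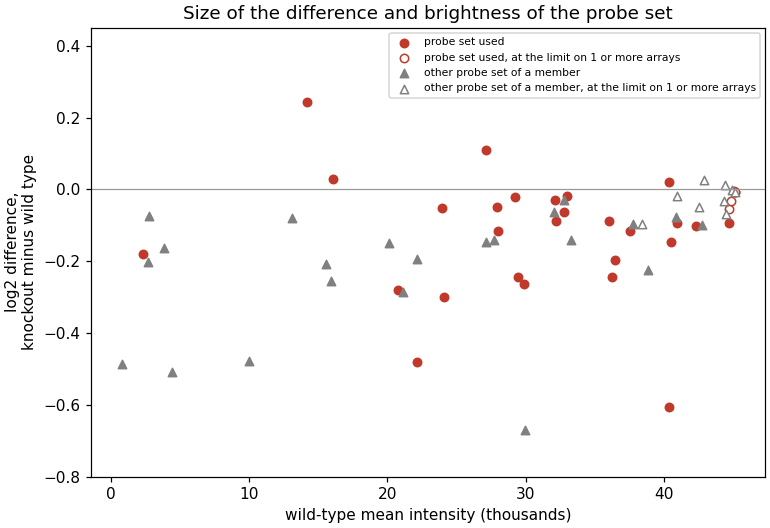
Log2 difference (knockout minus wild type) against the wild-type mean intensity, for the probe sets used and the other tested probe sets of the same genes. Open symbols, at the limit on 1 or more arrays, lie between -0.10 and 0.03, while dimmer probe sets of Ndufs4 and Ndufc2 lie near -0.5.

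The other genes that build or feed the complex were set beside the subunits. Of 19 assembly factors 13 were tested. Their median log2 difference was -0.09, and 3 were lower at an unadjusted p under 0.05, against 5.44% of all tested genes. Ndufaf5, a matrix enzyme that modifies Ndufs7 in human cells, read 1597, 1228 and 1321 in the knockout and 1945, 1953, 1714 and 2101 in the wild type (log2 difference -0.48 ± 0.12, SE; limma adjusted p = 0.255). Tmem70, an assembly protein best known for ATP synthase, read 3352, 3331 and 3734 in the knockout and 3879, 4329, 6330 and 5032 in the wild type (log2 difference -0.47 ± 0.18, SE; limma adjusted p = 0.379). Both had every knockout array below every wild-type array. Timmdc1, a membrane assembly factor, differed by -0.31 with groups that touched at 1557. Ndufab1, the acyl carrier protein present in both arms, read 35660, 35856 and 34859 in the knockout and 33528, 38214, 36233 and 36238 in the wild type (log2 difference -0.02). The mitochondrially encoded subunit ND5 read the upper limit on every array and gives no fold.

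Of 11 genes for other enzymes, subunits and carriers on electron paths to ubiquinone, 10 were tested. Their median log2 difference was -0.20, with 2 lower at an unadjusted p under 0.05. Such calls, here and in the lists that follow, were made for 5.44% of all tested genes on the lower side and 6.77% on the higher side. Etfdh, which takes electrons from fatty acid oxidation, differed by -0.24 ± 0.08 (SE; limma adjusted p = 0.341), and Sdha of complex II by -0.29 ± 0.12 (SE; limma adjusted p = 0.408). Complex III had a median of -0.17 over 9 genes with 3 at an unadjusted p under 0.05, complex IV -0.04 over 12 with 1, and ATP synthase -0.06 over 15 with 3, all lower. Markers of mitochondrial content had a median of -0.03 over 19 genes with 3 at that p, all lower. These were the electron carrier Cycs (-0.29) and the import proteins Timm23 (-0.21) and Timm44 (-0.30), the last of which turned to 0.01 with hybridization day as a fixed block. In complex III the 3 were Uqcrq (-0.47), Cyc1 (-0.21) and Uqcr11 (-0.19), in complex IV Cox7a1 (-0.36), and in ATP synthase Atp5g2 (-0.74), Atp5e (-0.21) and Atp5pb (-0.13). Among 12 tested regulators of respiratory genes, 2 had an unadjusted p under 0.05, both lower. The coactivator Ppargc1a read 738, 833 and 1149 in the knockout, against 4126, 4237, 3351 and 3153 in the wild type. Its groups lay far apart, with a log2 difference of -2.03 ± 0.18 (SE; limma adjusted p = 0.0531). The other was Tfb1m, a mitochondrial rRNA methyltransferase (-0.36, limma adjusted p = 0.366). The nuclear factors Nrf1, Gabpa and Esrra differed by -0.05, -0.13 and -0.19, and the mitochondrial transcription factor Tfam by -0.13, with limma p above 0.05. Esrra was lower on every knockout array, though M10 at 2448 nearly met wild-type M23 and M158 at 2450. Differences between these groups of genes and complex I were not tested.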

How the data were processed

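The authors' deposited table holds intensity values of Affymetrix MOE430A arrays (chip type per the file headers) on a linear scale. The sources used here do not give the software, background correction or scaling. Precision is limited by group size, 3 and 4 arrays. The deposited experiment sheets, per the file headers text with other information and no measurement, gave the chip lots and hybridization days. Days were coded 1 to 4 from the earliest. After removal of 64 control probe sets, 22626 remained. Of these 20380 named 1 gene, 691 several and 1555 none in the platform table. Values were taken as log2(intensity + 16), which understates differences of dim probe sets. The test took the 13836 probe sets that exceeded the 40th percentile on 3 or more arrays. The probe set of a gene was chosen before this filter.

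Groups were compared by limma 3.58.1 (lmFit, eBayes with trend, two-sided, no covariate) in R 4.3.3, with p-values adjusted after Benjamini-Hochberg across the 13836 probe sets and called at 0.05. Members and gene lists were chosen with earlier results of these data known. Values on every array are given by rule for the core subunits, members with an unadjusted p under 0.05 and Ndufa4. By later choice they are given for Nos3, Nppa, Myl7, Ndufa6, Ndufc2, Ndufa1, Ndufa8, Ndufb1, Ndufab1, Ndufaf5, Tmem70 and Ppargc1a. The second probe set of Ndufb2 was also printed by later choice. Cell type markers were read on their brightest probe set. Arrays correlated at 0.973 to 0.992 on the log2 scale, and no pair shared more than 7.18% of its values. Of the 33 member probe sets, 15 held the same value on different arrays. Ndufv1, for example, read 35014 on M10, M140 and M158. The source of these ties is not given, and their effect on the spread was not tested. Alternatives were the offset, quantile normalization, normexp, the filter, trend, array weights, hybridization day as a fixed or random block, the choice of probe set and leaving out each array. Probe sets below 90% of the limit and the omission of array pairs were added after the data were seen.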

Additional observations from a re-analysis of the deposited data

Results flagged for a closer look

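In the wild-type group of 4 arrays, 2 subunits had an array far from the others, by a gap to the nearest array that exceeded Dixon's 95% critical value. Ndufa6 read 38124 on wild-type M128 and 26894 to 27712 on the other wild-type arrays, against 23610 to 25249 in the knockout. Ndufa12 read 34130 on wild-type M125 and 31424 to 31605 on the others, against 30051 to 32929 in the knockout. Chance alone gives such a gap in about 1 in 20 groups of independent, normally distributed values. Both genes held tied values among the other wild-type arrays. Ndufa6 read 26894 on M125 and M158, and Ndufa12 read 31424 on M23 and M128. That rate does not hold for tied values, so these gaps cannot be weighed against it. The cause was not tested.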

How the results depend on the processing

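Over 22 alternatives (19 planned, 3 added after the data were seen) the median log2 difference of the subunits stayed below 0. It was -0.11 with array weights, -0.054 with day as a fixed block, -0.064 with the brightest probe set whatever the limit, -0.060 without M23 and M158, -0.11 without M10 and M125, and -0.10 to -0.060 without single arrays. The count lower at an unadjusted p under 0.05 was 12 with array weights (11.0% of all genes, against 5.44% without), 8 with each gene's probe sets averaged (6.01%), and 3 to 8 without single arrays. The count past an adjusted p of 0.05 was 1 with array weights (4.60% of all genes) and 0 otherwise, and the count higher was 1 with the day block (8.74%) and 0 otherwise. Subunits with separate groups numbered 17 without M10 and M125 (14.2% of all genes) and 8 to 13 without single arrays; fewer arrays make separation easier. The median deviation with quantile normalization was -0.094 on M4 and 0.0075 on M128, and with the brightest probe set -0.040 on M4 and -0.045 on M140. With probe sets averaged it was -0.092 on M4, -0.052 on M10 and 0.014 on M125. With probe sets below 90% of the limit (24 genes) it was -0.063 on M10, -0.10 on M140, -0.057 on M23, 0.027 on M125 and -0.043 on M128, and without M23 and M158 it was -0.052 on M4 and 0.016 on M128. Without single arrays it ran from -0.15 to -0.053 on M4, -0.082 to -0.034 on M10, -0.11 to -0.067 on M140 and -0.013 to 0.0043 on M128. The median of M140 minus M128 was -0.071 with quantile normalization, -0.037 with the brightest probe set and -0.075 with probe sets below 90% of the limit. Ndufv1 turned to 0.17 with the day block. Ndufs8 turned to -0.010 with the day block, -0.12 with probe sets averaged, -0.0040 without knockout M4, -0.0029 without wild-type M158 and -0.26 with probe sets below 90% of the limit. Without single arrays it ran from -0.0040 to 0.043. Timm44, a mitochondrial import protein, turned to 0.011 with the day block. Ndufs4 kept an unadjusted p under 0.05 in 22 of 22 alternatives, Ndufb2 in 21, Ndufs1 in 20, Ndufa2 in 16 and Ndufb6 in 14. The causes were not tested. No paired analysis was possible because the labels give no pairs of mice; hybridization day was used as a block instead. The upper limit and the number of arrays limit what can be seen.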
